A study of Sus scrofa with 35 samples.

Results

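The genes examined here encode proteins that neutrophils store in granules or carry in bulk in the cytosol, measured in whole blood of pigs kept at a thermoneutral temperature or exposed to heat. They were chosen by gene name (S100A8, S100A9, S100A12, LTF, MMP8, MMP9, CSF3R, MPO and ARG1) together with every probe whose description holds the word cathelicidin or protegrin. The rule reads names and descriptions and no measured value, although it was written with earlier results of these data known. It found 19 probes among the 60305 non-control probes of the array, and all 19 were among the 39072 probes of the authors' normalized table. They stand for 8 of the 8898 named genes of that table: 5 probes for ARG1, 3 each for LTF, MMP9 and the protegrin gene NPG4, 2 for S100A9 and 1 each for S100A8, S100A12 and MPO. No probe carried the gene name MMP8 (neutrophil collagenase) or CSF3R (the receptor of granulocyte colony-stimulating factor), so neither was analysed here. Where a gene had several probes, the one with the highest mean level over all pigs stood for the gene.

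The 35 arrays each held whole-blood RNA of 1 castrated male pig of the Creole breed (CR), the Large White breed (LW) or their cross (F1). Thermoneutral (TN) pigs were kept and slaughtered at 24 °C, and heat-stressed (HS) pigs were slaughtered later, after 5 d of heat by the growth protocol and after 4 or 5 d by the study's methods, so that climate and sampling time cannot be told apart. The heat is given as 30 °C in the sample labels and as 32 °C in the growth protocol and the study's methods. There were 5 CR pigs in TN and 6 pigs in each of the other 5 groups (CR in HS, and F1 and LW in both climates), 17 TN and 18 HS pigs in all. By the study's methods these were growing pigs, moved to the climatic room at the same age in all breeds. Littermates were spread over both climates. Each pen held a single breed, and its pigs were slaughtered in a single climate. The labels give neither the age of a pig nor its litter or pen. Each array had between 55.2 and 68.0% of its probes well above background. The 35 arrays lay on 5 slides.

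Neutrophils are short-lived phagocytes that carry their antimicrobial proteins ready-made. Most granule proteins are made in the bone marrow in a fixed order during maturation: azurophil (primary) granule proteins such as myeloperoxidase come first, then specific (secondary) granule proteins such as lactoferrin and the cathelicidins, and last the gelatinase granule proteins such as MMP9. The calgranulins S100A8, S100A9 and S100A12 are calcium-binding proteins that fill the neutrophil cytosol, bind zinc and other metals that microbes need, and act as alarm signals once released. In whole blood, fewer cells of a type and less RNA per cell cannot be told apart.

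All probes are 60 bases long. The probes of the calgranulins are shown because these genes form one family and their levels correlated closely. Letters in capitals mark a 6-base run that a probe has in common with one of the other 2, the longest run that any pair of the 3 shares. No transcript sequence was used, so matches of a probe to other parts of a family member's RNA were not examined.
S100A8: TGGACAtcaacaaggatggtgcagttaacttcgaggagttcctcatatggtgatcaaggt
S100A9: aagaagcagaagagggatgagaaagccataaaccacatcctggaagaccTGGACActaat
S100A12: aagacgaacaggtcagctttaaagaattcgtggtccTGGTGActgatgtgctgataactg

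Overlaps between probes limit how many readings are separate. The main LTF probe and another LTF probe share 44 bases, and the NPG4 probes share runs of 57 and 42 bases, so these probes read nearly the same stretch. Protegrins belong to the cathelicidins, whose members have closely related precursors, and the NPG4 probes share runs of between 5 and 18 bases with the probes of the family members PMAP-23, PMAP-36 and PR39. ARG1, in contrast, was read at separate places. The 3 ARG1 probes shown next share no run of 12 or more bases with each other.
ARG1, probe A_72_P618995: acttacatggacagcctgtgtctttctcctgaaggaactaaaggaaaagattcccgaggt
ARG1, probe A_72_P578963: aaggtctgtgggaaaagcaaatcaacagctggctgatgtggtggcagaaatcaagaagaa
ARG1, probe A_72_P613067: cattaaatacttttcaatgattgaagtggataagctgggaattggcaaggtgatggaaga

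Of the 8 genes, ARG1 alone passed the test for an effect of heat, and it was lower in HS pigs. The calgranulins, the granule proteins LTF, NPG4 and MPO, and MMP9 had lower means in HS pigs than in TN pigs, but none of these differences passed the test. Over all breeds, in a model with breed and climate as additive terms, 6 of the 19 probes passed the FDR adjusted p-value threshold of 0.05, all lower in HS: the 5 probes of ARG1 and 1 probe of MMP9. The background is high, since 34.8% of all 39072 probes passed the same test and 14.7% passed it with a lower level in HS. All 19 probes had a negative difference, against 40.2% of all probes. These 19 are not separate readings. Most probes of one gene correlated closely from pig to pig, as did the 7 genes other than ARG1 (median r = 0.93). The median difference of the 8 genes was -0.57 (log2, HS minus TN), and the median of all probes was 0.06. With the mean level of erythroid genes in the model, described further on, the ARG1 difference was -0.56 (log2, adjusted p = 0.209). The differences of the other 7 genes turned positive (0.56 to 1.02), and none of the 8 passed the test. In that fit almost none of all 39072 probes passed. The erythroid mean was itself lower in HS in each breed and correlated with all 8 genes, so this fit cannot separate it from climate.

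**Figure D1:**
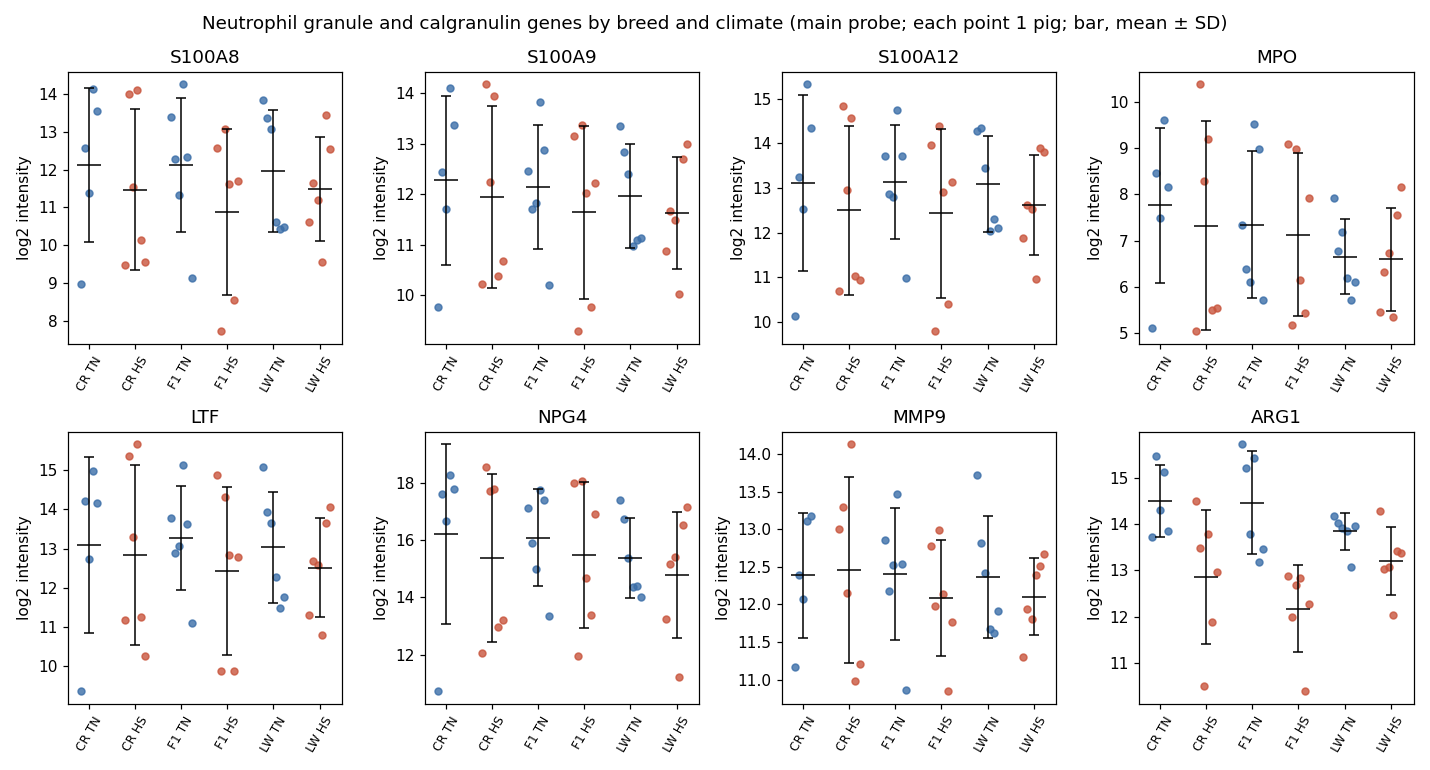
Level of the main probe of each gene (log2 intensity after normalization, y axis) in each pig of the 6 groups, with points for pigs and bars for the group mean and SD (n = 5 in CR TN, n = 6 elsewhere). ARG1 in F1 pigs is the one gene and breed in which the TN and HS pigs did not overlap by the main probe. Of all probes, 8.08% were lower in HS without overlap in F1.

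S100A8, one chain of calprotectin, spanned several log2 units in each group. Its levels (log2) in the 5 CR TN pigs were 8.98, 12.56, 11.39, 14.12 and 13.55. The 6 HS pigs of that breed had a lowest, median and highest level of 9.47, 10.85 and 14.10. In F1 these were 9.13, 12.31 and 14.25 in TN and 7.73, 11.65 and 13.06 in HS. In LW they were 10.44, 11.84 and 13.85 in TN and 9.56, 11.42 and 13.43 in HS. The TN and HS pigs overlapped in every breed, and pigs near the top and near the bottom of the scale were found in both climates. The difference between HS and TN was -0.79 ± 0.58 (log2, SE, 95% confidence interval -1.97 to 0.39, adjusted p = 0.286).

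S100A9, the other chain of calprotectin, had group means from 11.63 in LW HS pigs to 12.28 in CR TN pigs (log2), with SDs from 1.03 to 1.79. Its difference between HS and TN was -0.39 ± 0.45 (log2, SE, adjusted p = 0.505). S100A12, a calgranulin that signals to other leukocytes once released, ranged in group means from 12.43 in F1 HS pigs to 13.14 in F1 TN pigs, with a difference of -0.60 ± 0.49 (log2, SE, adjusted p = 0.340). For all 3 calgranulins the interval of the difference included 0. In the 3 breeds taken one at a time, the TN and HS pigs overlapped for each calgranulin.

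MPO, the azurophil enzyme that makes hypochlorous acid, was the one member whose main probe was not well above background on every array. It was so in 4 of 5 CR TN pigs, in all 6 F1 TN and all 6 LW TN pigs, and in 5 of 6 pigs of each HS group. Its group means ran from 6.59 in LW HS pigs to 7.76 in CR TN pigs (log2), and its difference between HS and TN was -0.23 ± 0.50 (log2, SE, adjusted p = 0.737). A probe that the array names only as TC572506 and describes as a myeloperoxidase precursor, outside the rule for members, was lower in HS by -0.48 (log2, adjusted p = 0.00227). This probe did not follow the MPO probe from pig to pig (r = -0.20 after subtracting group means, n = 35, a description only), so the 2 readings named after this enzyme disagree.

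LTF encodes lactoferrin, the iron-binding protein of the specific granules. Its lowest level in each group lay between 9.35 and 11.49 and its highest between 14.05 and 15.66 (log2), so that every group covered much of the same scale. The difference between HS and TN was -0.54 ± 0.57 (log2, SE, adjusted p = 0.465). A probe with exactly the same 60 bases, listed under another name, gave -0.57 (adjusted p = 0.449) and correlated with it at r = 0.999, which shows the repeatability of a spot.

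NPG4 encodes protegrin 4, an antimicrobial peptide of pig neutrophils that is stored as a cathelicidin precursor. It had the widest span of the 8 genes. Its levels (log2) in the 5 CR TN pigs were 10.72, 17.62, 16.68, 18.26 and 17.78. In the 6 CR pigs under HS the lowest, median and highest were 12.07, 15.46 and 18.54. In F1 they were 13.36, 16.51 and 17.74 in TN and 11.96, 15.79 and 18.05 in HS. In LW they were 14.03, 14.89 and 17.41 in TN and 11.24, 15.29 and 17.16 in HS. One CR TN pig lay far below the other 4 of its group, and the climates overlapped in all breeds. The difference between HS and TN was -0.67 ± 0.73 (log2, SE, adjusted p = 0.486). The other cathelicidins of the array, which the rule did not catch, gave -0.63 for PMAP-23, -0.95 for PMAP-36 and -0.78 for PR39 (log2, adjusted p = 0.57, 0.46 and 0.46), and none passed the test.

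MMP9, the gelatinase of the last granules to form, had the closest group means of the 8 genes, from 12.08 in F1 HS pigs to 12.46 in CR HS pigs (log2). Its main probe differed between HS and TN by -0.18 ± 0.27 (log2, SE, adjusted p = 0.631). One other MMP9 probe, O11977, was lower in HS by -0.19 ± 0.07 (log2, SE, adjusted p = 0.0399). That probe was dim, with group means from 5.29 to 5.64, its level tracked the main MMP9 probe weakly over the pigs (r = 0.38, n = 35), while the remaining MMP9 probe tracked it closely (r = 0.991), and it lost its call in 16 of the 35 fits that left out 1 pig.

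ARG1 encodes arginase 1, which splits arginine into ornithine and urea. It is best known as the last enzyme of the urea cycle in the liver, and in humans it is also a neutrophil granule protein and an abundant enzyme of red cells. The level of its main probe (log2) in the 5 CR TN pigs was 13.73, 15.47, 14.30, 15.13 and 13.85. With heat, CR pigs had a lowest, median and highest level of 10.50, 13.23 and 14.50. F1 pigs had 13.18, 14.49 and 15.72 in TN and 10.39, 12.48 and 12.88 in HS. In LW they were 13.08, 13.95 and 14.18 in TN and 12.05, 13.23 and 14.29 in HS. For this probe the TN and HS pigs did not overlap in F1 and overlapped in CR and LW. Only 2 of the 5 ARG1 probes had F1 groups without overlap, and 8.08% of all probes were lower in HS without overlap in F1. Of the 18 HS pigs, 16 lay below the TN mean of their own breed, against 9 to 12 of 18 for the main probes of the other genes. The dim MMP9 probe O11977 also had 16 of 18. The share of all probes with such a count was not computed.

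The difference in ARG1 between HS and TN was -1.52 ± 0.32 (log2, SE, 95% confidence interval -2.17 to -0.87, adjusted p = 0.00165), a level 2.86-fold lower in HS. This call was lost with the erythroid covariate (-0.56, adjusted p = 0.209) and without F1 pigs (-1.11, adjusted p = 0.204), fits in which 0.00256% and 0% of all probes passed. The 5 ARG1 probes gave differences from -1.53 to -1.40, with adjusted p-values from 0.00159 to 0.00168, and correlated with each other at r = 0.892 or more. Within slides, with breed in the model, ARG1 was lower in HS on 5 of 5 slides, by -2.42 to -0.87 (log2). The other 7 genes were lower on 3 or 4 of the 5 slides, and S100A8, for example, ran from -2.02 to 0.24.

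**Figure D2:**
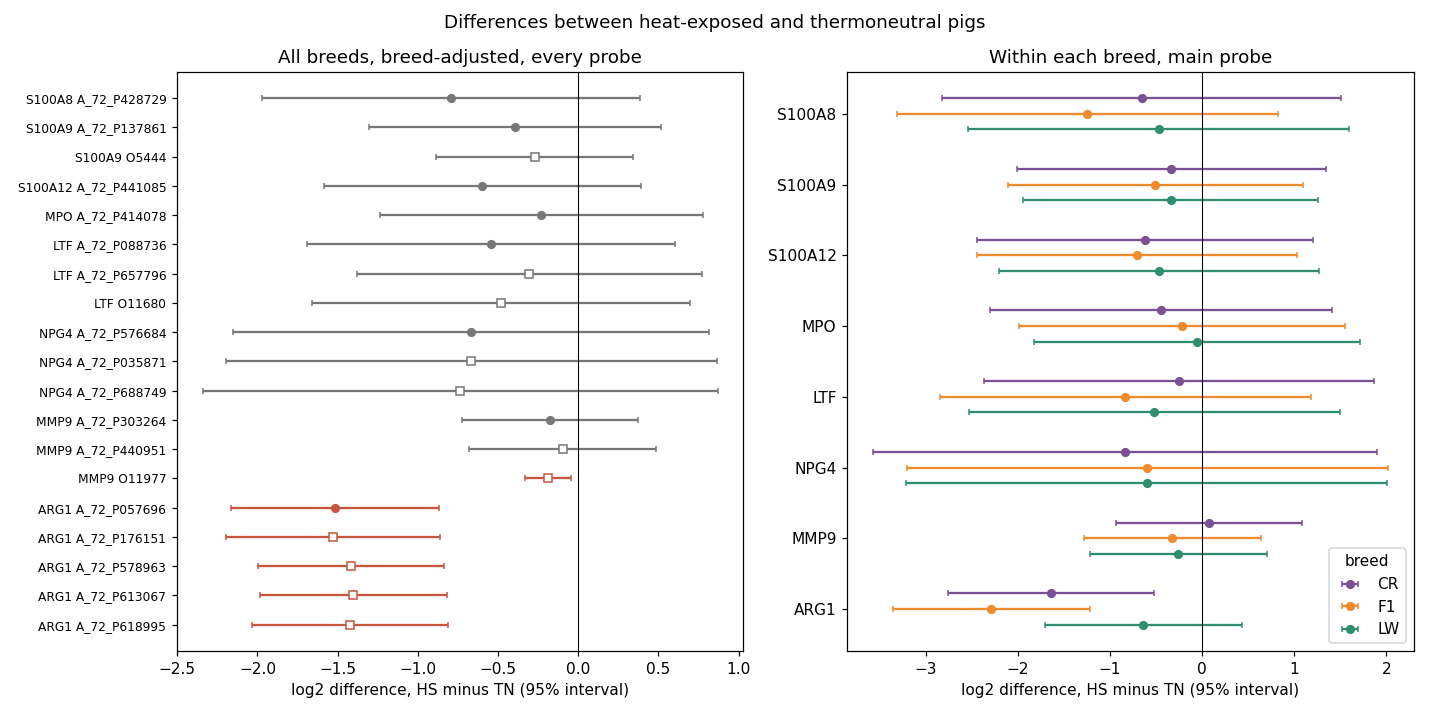
Difference between HS and TN pigs (log2, x axis) for the main probe of each gene over all breeds and within each breed, with points for the estimate and bars for its 95% confidence interval. The ARG1 interval lies below 0 over all breeds (-2.17 to -0.87), while those of the other 7 genes over all breeds include 0.

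By breed, heat differences in ARG1 were largest in F1. Within F1 the difference was -2.29 ± 0.52 (log2, SE, adjusted p = 0.00148), a level 4.88-fold lower in HS. In that contrast 6 of the 19 probes passed the threshold, the 5 of ARG1 (-2.29 to -2.12) and O11977 of MMP9 (-0.35, adjusted p = 0.0223), against 38.7% of all probes and 17.9% with a lower level in HS. Of the 19 probes, 2 (both of ARG1) had F1 groups that did not overlap, and 8.08% of all probes were lower in HS without overlap in F1. Within CR, ARG1 differed by -1.64 ± 0.55 and within LW by -0.64 ± 0.52 (log2, SE), and neither passed the threshold (adjusted p = 0.557 and 0.698). No member passed it in CR or LW (limma, adjusted over all probes), and the background was 0% of all probes in both. At an unadjusted p under 0.05, 5 member probes passed in CR, all of ARG1, and 0 in LW, against 3466 and 3404 of all probes.

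The larger ARG1 difference in F1 was not established as a difference between breeds. The HS effect in F1 minus that in LW was -1.65 ± 0.74 (log2, SE, adjusted p = 0.185, unadjusted p = 0.0328). In that contrast 0 of the 19 probes passed the threshold, against 0% of all probes. At an unadjusted p under 0.05 there were 5, all of ARG1, against 8874 of all 39072 probes. The interaction of breed and climate passed the threshold for 0 of the 19 probes (limma), against 0% of all probes. At an unadjusted p under 0.05 it also passed for 0, against 5807 of all 39072 probes. The other 7 genes had heat differences from -0.83 to 0.08 within CR, from -1.25 to -0.21 within F1 and from -0.60 to -0.06 within LW (log2), and none passed in any breed.

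No member passed the test for breed. For the main probes, CR minus LW ran from -0.04 to 0.91, F1 minus CR from -0.35 to 0.00 and F1 minus LW from -0.24 to 0.70 (log2). In these 3 contrasts 0 of the 19 probes passed the threshold (limma), with backgrounds of 1.08, 0.184 and 0.0256% of all probes. At an unadjusted p under 0.05 also 0 passed, against 3950, 1933 and 1751 of all 39072 probes. Sorted by group mean, no 2 neighbouring groups of any of the 8 genes differed by more than the larger of their SDs. The gap between the highest and the lowest group mean ran from 0.38 for MMP9 to 2.32 for ARG1 (log2).

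Most of these genes varied widely between pigs of one group. The within-group SD was between 1.45 and 2.36 (log2) for S100A8, S100A9, S100A12, LTF, MPO and NPG4, larger than that of 99.8 to 99.98% of all probes, whose median was 0.268. It was 0.87 for MMP9 and 0.96 for ARG1, larger than that of 98.7 and 99.1% of all probes. Some genes outside the rule varied as widely, such as PGLYRP1 (1.85), the platelet gene GP1BB (1.58) and PMAP-36 (3.16). The median SD was 1.03 for 14 other granule genes, 0.93 for 9 platelet genes and 0.43 for 11 neutrophil surface genes. Over all 35 pigs the highest level was 226 times the lowest for NPG4, 91.9 times for S100A8, 79.5 times for LTF, 46.2 times for S100A12, 40.4 times for ARG1, 29.5 times for S100A9 and 9.76 times for MMP9. No such ratio is given for MPO, whose lowest value came from an array on which its probe was not well above background. These spans are a description, and no test was made of them.

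The pigs that were high or low were the same ones from gene to gene. In 2 of the 6 groups a single pig was the lowest of its group for all 7 genes other than ARG1, and in 4 groups a single pig was lowest for at least 6 of them. In 5 groups a single pig was highest for at least 5 of the 7. One CR TN pig, replicate 1, was the lowest of its group for all 7, and an F1 TN pig, replicate 4, was the highest for all 7.

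Correlations were computed over the 35 pigs after subtracting each group's mean, for 28 pairs of genes, with permutation p-values (100000 permutations of pigs within groups, two-sided) adjusted over the 28 pairs. The 21 pairs without ARG1 all passed the threshold, with Pearson's r from 0.68 to 0.99 (median 0.93), Spearman's rho from 0.70 to 0.99 and adjusted p-values of at most 0.000173. Without the 2 pigs farthest from the median they ran from 0.64 to 0.99. Within slides 1 to 4, with slide 5 left out, they ran from 0.22 to 0.998. The closest pair was S100A9 and S100A12 (r = 0.99, rho = 0.99, adjusted permutation p = 1.47e-05, which rests on the smallest p these permutations can give). S100A9 followed LTF at r = 0.97, NPG4 at 0.94, MPO at 0.94 and MMP9 at 0.80, so genes of the cytosol and of all granule classes were high and low in the same pigs. Of these 7 genes, MMP9 was the one least tied to the rest.

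ARG1 followed the other genes only loosely. Its 7 pairs had r from 0.26 to 0.50 and rho from 0.33 to 0.52, and 3 passed the threshold: with MMP9 (r = 0.50, adjusted permutation p = 0.0151), S100A8 (r = 0.45, adjusted permutation p = 0.0220) and LTF (r = 0.42, adjusted permutation p = 0.0370). Those with the lowest r were MPO (0.26, adjusted permutation p = 0.242) and NPG4 (0.26, adjusted permutation p = 0.201). Without the 2 farthest pigs the ARG1 pairs ran from 0.16 to 0.44. Over 8890 named genes, r with ARG1 had a median of -0.05 and 5th and 95th percentiles of -0.65 and 0.64. All 7 ARG1 pairs lay inside that range.

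**Figure D3:**
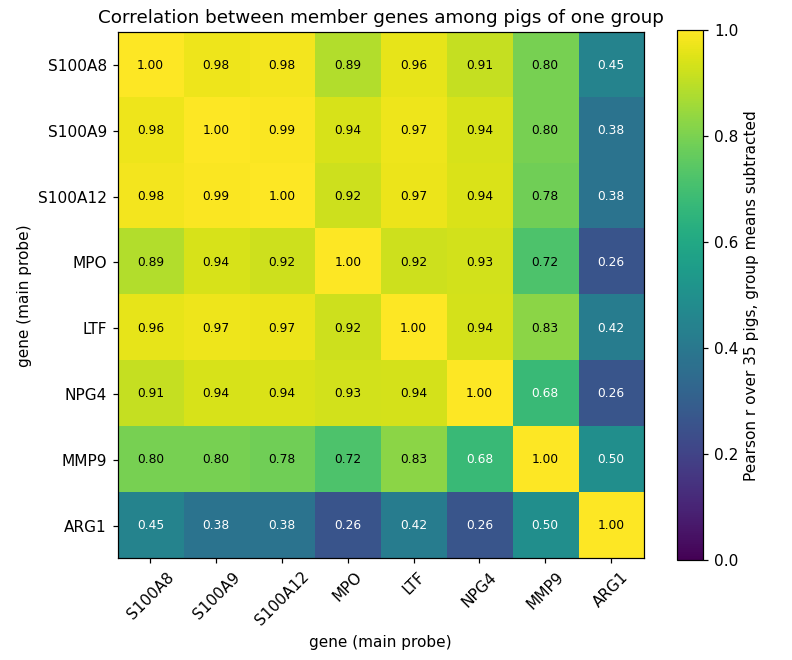
Pearson correlation over 35 pigs between the main probes of the 8 genes, each gene's group means subtracted, with colour and printed number giving r. The 21 pairs without ARG1 range from 0.68 to 0.99, and the 7 pairs with ARG1 from 0.26 to 0.50.

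Among named genes outside the rule, those whose pig-to-pig pattern was most like the mean of the 8 genes (group means subtracted, 35 pigs, a description) were CRISP3 (r = 0.97), TCN1, PGLYRP1, RETN, PRTN3, HP, ALPL, CD5L, PMAP-23 and CCDC61 (r = 0.92). For the mean of the 3 calgranulins the first was RETN (r = 0.97), and LCN2 took the place of ALPL among the first 10. None of these genes passed the test for heat, and CRISP3 was nearest, at -0.97 (log2, adjusted p = 0.112). For ARG1, a comparison added after its values were seen, the first 6 were TFDP2 (r = 0.91), NTAN1, CLIC2, UBE2R2, BNIP3L and CDKN3 (r = 0.88). All 6 of these passed the test for heat and were lower in HS, by -1.28 for TFDP2 to -0.48 for UBE2R2 (log2, adjusted p = 0.00168 and 0.0167).

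Other genes of the neutrophil were taken from lists of known granule and surface proteins. Of 14 other granule genes measured, 1 passed the test for heat with a higher level and 2 with a lower level, against 39.5% of all 8898 named genes in either direction, 22.7% higher and 16.8% lower. Every call on a list gene named in this and the next 2 paragraphs was lost with the erythroid covariate (adjusted p from 0.161 to 0.644) and without F1 pigs (adjusted p from 0.174 to 0.377). CD63, a membrane protein of azurophil granules and other lysosome-like organelles, was higher by 0.37 (log2, adjusted p = 0.00159). ELANE, neutrophil elastase, was lower by -0.97 (log2, adjusted p = 0.00306), and SRGN, the proteoglycan that packs granule contents, was lower by -0.23 (log2, adjusted p = 0.0250). Their list had a median of -0.29, and all named genes one of 0.06.

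Of 11 neutrophil surface genes measured, 0 passed with a higher and 3 with a lower level, against 22.7% and 16.8% of all named genes. SELPLG, the selectin ligand that lets leukocytes roll on vessel walls, was lower by -0.81, CSF2RB, the shared receptor chain of several myeloid growth factors, by -0.58, and CXCR4, the receptor that holds neutrophils in the marrow, by -0.50 (log2, adjusted p = 0.00220, 0.00545 and 0.00711). Of 9 measured regulators of granulocyte formation, 1 passed higher and 2 lower. CEBPA, a factor needed to enter the granulocyte lineage, was lower by -0.88 and GATA2, a factor of blood stem and progenitor cells, by -0.68 (log2, adjusted p = 0.00222 and 0.00394), while STAT3, which carries the signal of granulocyte colony-stimulating factor, was higher by 0.28 (log2, adjusted p = 0.0374).

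Among 9 other S100 genes and receptors of calgranulins, 2 passed with a higher and 1 with a lower level in HS. Among all named genes these shares were 22.7% and 16.8%. S100A6, a related calcium-binding protein, was higher by 0.46 and BSG, a receptor reported to bind S100A9, by 0.28, and AGER, the receptor of S100A12, was lower by -0.14 (log2, adjusted p = 0.00610, 0.00226 and 0.0480). The call of AGER was lost in 21 of the 35 fits that left out 1 pig, and that of STAT3 in 10. Of 5 measured inhibitors of neutrophil proteases and 7 other genes of arginine metabolism, 0 passed over all breeds (limma), against 39.5% of all named genes.

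The pig-to-pig pattern of the calgranulins was then set against both neutrophil lists, with S100A9 as the reference, in 25 relations chosen after the correlations among the members were known (permutation p-values within groups, adjusted over the 25). Of the 14 other granule genes, 8 correlated positively with S100A9 past the threshold, among them PGLYRP1 (r = 0.97), PRTN3 (r = 0.96), HP (r = 0.95), TCN1 (r = 0.95), CRISP3 (r = 0.95) and LCN2 (r = 0.94), and none correlated negatively. ELANE, which encodes an azurophil protease alongside PRTN3, followed at r = 0.62. The surface genes did otherwise. Of 11, 1 correlated positively (ALPL, alkaline phosphatase, r = 0.91) and 2 negatively. CXCR2, the chemokine receptor of mature neutrophils, was lower in pigs in which S100A9 was higher (r = -0.61, rho = -0.61, adjusted permutation p = 0.00114). Without the 2 farthest pigs this r was -0.56, and within slides 1 to 4, with slide 5 left out, it ran from -0.87 to -0.15. FCGR3A, an Fc receptor, gave r = -0.43 (adjusted permutation p = 0.0411) with rho = -0.34 (adjusted permutation p = 0.112). For scale, r with the mean of the 7 genes other than ARG1 was taken over 8890 named genes. Its 5th and 95th percentiles were -0.46 and 0.48, and FCGR3A, at -0.43 with that mean, lay inside them. CXCR2 itself differed between HS and TN by -0.07 (log2, adjusted p = 0.778).

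**Figure D4:**
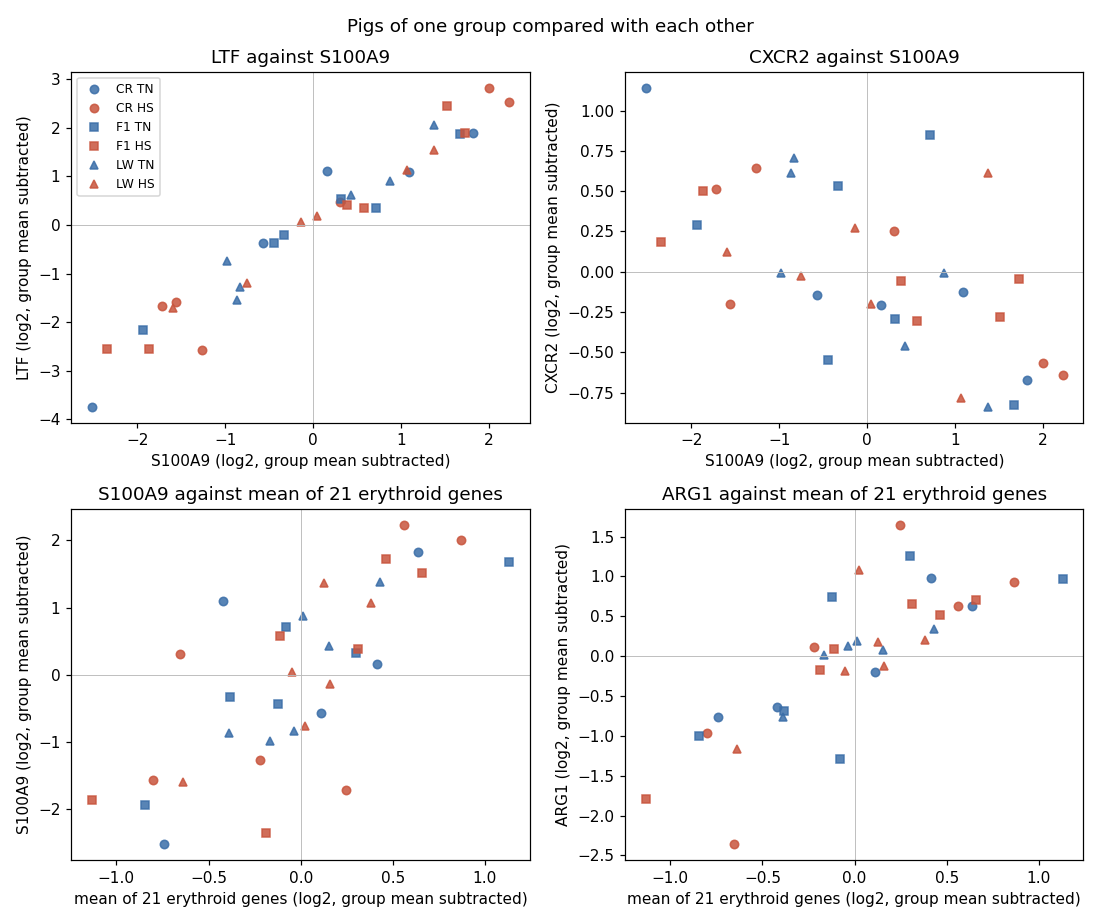
Levels of pairs of measures in each of 35 pigs (log2, each group's mean subtracted, 1 point per pig, groups by colour): LTF against S100A9, CXCR2 against S100A9, S100A9 against the mean of 21 erythroid genes, and ARG1 against the same mean. LTF was higher where S100A9 was higher (r = 0.97), CXCR2 was lower there (r = -0.61), and S100A9 (r = 0.75) and ARG1 (r = 0.80) were higher where the erythroid mean was higher.

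Markers of red-cell precursors moved with these genes. The mean of 21 measured erythroid genes was lower in HS in each breed, at 10.46 in TN against 9.91 in HS for CR, 10.83 against 9.75 for F1 and 10.54 against 10.19 for LW (log2). Of the 21 genes, 11 passed the test for heat with a lower level and 1 with a higher level, against 16.8% and 22.7% of all named genes. After subtracting group means, the erythroid mean correlated with all 8 genes (16 relations with array measures in all), from r = 0.64 for NPG4 to r = 0.80 for ARG1, with adjusted permutation p-values of at most 0.00074. Without the 2 farthest pigs these ran from 0.64 to 0.77. With the erythroid mean as a covariate the ARG1 difference was -0.56 (log2, adjusted p = 0.209) and no member passed, and the share of all probes past the threshold fell to 0.00256%.

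The brightness of the arrays also differed between groups. The 75th percentile of the processed intensity was 149.9 ± 28.3 in F1 TN and 238 ± 35.6 in F1 HS pigs (SD, n = 6 each), and 202 to 228 in the means of the other 4 groups. After subtracting group means it correlated with ARG1 (r = -0.57, rho = -0.61, adjusted permutation p = 0.00316) and passed the threshold with none of the other 7 genes. What part the array brightness had in the ARG1 result was not tested. Of the other cell types, 3 of 9 monocyte, 4 of 12 T-cell and 2 of 6 B-cell genes passed with a higher level and 0 with a lower level, 2 of 11 cytotoxic-cell genes and 1 of 3 eosinophil or basophil genes passed with a lower level, and 0 of 9 platelet genes passed. Among all named genes these shares were 22.7% higher and 16.8% lower. Their part in the results was not tested.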

How the data were processed

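Whole-blood RNA of 35 pigs was hybridized to Agilent 1-colour porcine arrays, 1 array per pig. The authors scanned them with Agilent Feature Extraction 10.10.1.1 and deposited the intensity of each spot, with a table of log2 values of a filtered set of probes, imported with limma and quantile normalized with preprocessCore. Recomputing that table from the deposited intensities gave r = 0.99997. The log2 table was used as deposited, and intensities for brightness, background calls and alternatives.

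Differences were fitted in limma 3.58.1 (R 4.3.3) on all 39072 probes, as an additive model of breed and climate and as 6 group means, with Benjamini-Hochberg adjustment over all probes and a threshold of 0.05. The method was tested on simulated data. The study's random effects were not modelled, since the labels do not give litter or pen. By the study's methods each pen and each day of slaughter belonged to a single climate. Penmates were treated as independent, so p-values measure the spread between pigs and may be too small. Correlations used 100000 permutations within groups. The members and gene lists were chosen with earlier results of these data known, among them which genes are named: members, list genes past the threshold (at most 3 per list) and the 10 genes most like the members. The list of genes most like ARG1, CXCR2 and the 7 genes without ARG1 were singled out after their values were seen. No column of the authors' comparisons was used. Precision is limited by the number of arrays. Alternatives were other normalizations, filters, weights, a slide block, an erythroid covariate, leaving out a breed and leaving out each pig.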

Additional observations from a re-analysis of the deposited data

Results flagged for a closer look

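Over the 8 genes and 6 groups, 48 sets of pigs were examined for a pig far from the rest of its group, and 3 had one (chance alone gives about 1 in 20). ARG1 was 10.3857 (log2) in F1 HS replicate 5, against a group median of 12.48 and a highest level of 12.88. ARG1 was 13.0783 (log2) in LW TN replicate 5, while the others lay between 13.86 and 14.18. NPG4 was 10.7197 (log2) in CR TN replicate 1, while the others lay between 16.68 and 18.26, and the same pig was the lowest of its group for all 7 genes other than ARG1.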

How the results depend on the processing

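With 5 or 6 pigs a group and within-group SDs above 1 log2 unit for most members, intervals of the heat differences were wide, and a p that misses the threshold does not show that climates were alike. The ARG1 difference over all breeds passed the threshold under 10 of 12 alternatives. With the erythroid mean as a covariate it was -0.56 (adjusted p = 0.209), and without F1 pigs -1.11 (adjusted p = 0.204), so that 0 of 8 genes passed in place of 1. The share of all probes past the threshold was then 0.00256% and 0%. Within F1 the covariate gave -0.80 (adjusted p = 0.187) and 0 genes in place of 1. The covariate turned the differences of the other members to positive values, none past the threshold: S100A8 0.81, S100A9 0.80, S100A12 0.67, LTF 1.02, MMP9 0.56, MPO 0.998 and NPG4 0.98, and likewise PMAP-23 1.26, PMAP-36 1.40 and PR39 0.80. MPO turned to 0.0632 with array weights. The cause was not tested. The MMP9 probe O11977 lost its call under 5 of the 11 alternatives in which it was fitted, with adjusted p up to 0.555. Among these were the erythroid covariate, the fit without F1 pigs, quantile normalization recomputed (adjusted p = 0.0505) and no filter on dim probes (adjusted p = 0.0620). Leaving out 1 pig at a time kept 1 gene past the threshold over all breeds and within F1 and 0 within CR and LW, with ARG1 between -1.61 and -1.38 over all breeds and between -2.54 and -1.93 within F1. Beside the main probes of the members, 28 named readings passed the threshold (list genes and the probes TC572506 and O11977). Of these, 28 lost their call with the covariate, 28 without F1 pigs, 11 without LW pigs and 7 without CR pigs, with none reversed. The count of 24 of 28 correlated pairs was unchanged under both other normalizations tried. No paired analysis was possible because the labels carry no replicate numbers that join pigs across groups.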
